A study of Mus musculus with 41 samples.

Results

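Callus taken 10 days after tibial fracture from mice aged 25 months (old mice) was compared with day 0 tissue of the same age. Arrays were chosen by their labels alone (age and day), which gave 5 arrays at day 10 and 6 at day 0, 11 of the 41 arrays in the study, and all 19938 genes of the table were examined. Each array was hybridized with RNA from a different mouse of an aged rodent colony kept by the NIH. Fractures were closed, bilateral and made by bending around an intramedullary pin, and all mice of the protocol received isoflurane and buprenorphine. The labels read here name neither strain nor sex. The labels call the tissue callus in both groups, also at day 0, and describe the extracts as whole bone or callus only, without saying which array held which. Fracture, time since surgery and the tissue dissected therefore cannot be told apart in any difference below. The arrays measure a tissue mixture, so fewer cells of a type and less RNA per cell cannot be told apart either. The step from day 0 to day 10 in mice aged 5 months (young mice, 5 arrays at each day) is given where the ages are compared.

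A long bone broken around a pin heals largely through cartilage. Cells of the periosteum form a callus in which chondrocytes lay down a matrix of type II collagen and aggrecan, enlarge into hypertrophic chondrocytes that make type X collagen, and are replaced by bone as vessels and matrix-resorbing cells enter. Intact bone holds marrow, where red cells, granulocytes, platelets and B cells are made, so a sample of it carries the transcripts of dividing blood-forming cells. Day 10 in the mouse falls in the cartilaginous phase of this sequence.

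Values are log2 signals as deposited, and a change is the difference of group means, day 10 minus day 0, with its standard error (±). Genes were called at an adjusted p under 0.05 in the limma test described below the results. Array medians ranged from 5.374 to 5.483 over all 41 arrays, and the number of arrays limits the precision of every value. Day separated the 11 arrays on the first principal component, which carried 82.3% of their variance. On the second component (5.19%), replicate 1 of day 0 (score 25.9) and replicate 1 of day 10 (score −31.1) lay farthest from the rest of their groups, and they are followed below. Counts without both are given where they differ by more than 1.5 times. The mean of the cartilage matrix list ran from 5.40 to 5.84 over the day 0 arrays and from 7.93 to 8.93 over the day 10 arrays, without overlap. The labels call both groups callus and this list is also a result below, so these means are no test of the label.

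Of the 19938 genes, 9152 (45.9%) were called: 4890 (24.5%) higher and 4262 (21.4%) lower at day 10. At least a 2-fold change was found for 1690 called genes that were higher (8.48%) and 1247 that were lower (6.25%), and 111 rose and 90 fell by at least 8-fold. The groups did not overlap for 6659 genes (33.4%). The median change over all genes was −0.01. Cartilage, fibrous matrix, collagen-processing, bone-forming, hedgehog and vessel genes were among the lists with the highest shares of rises. Red-cell, platelet, neutrophil, B-cell and cell-division genes had the highest shares of falls.

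**Figure D1:**
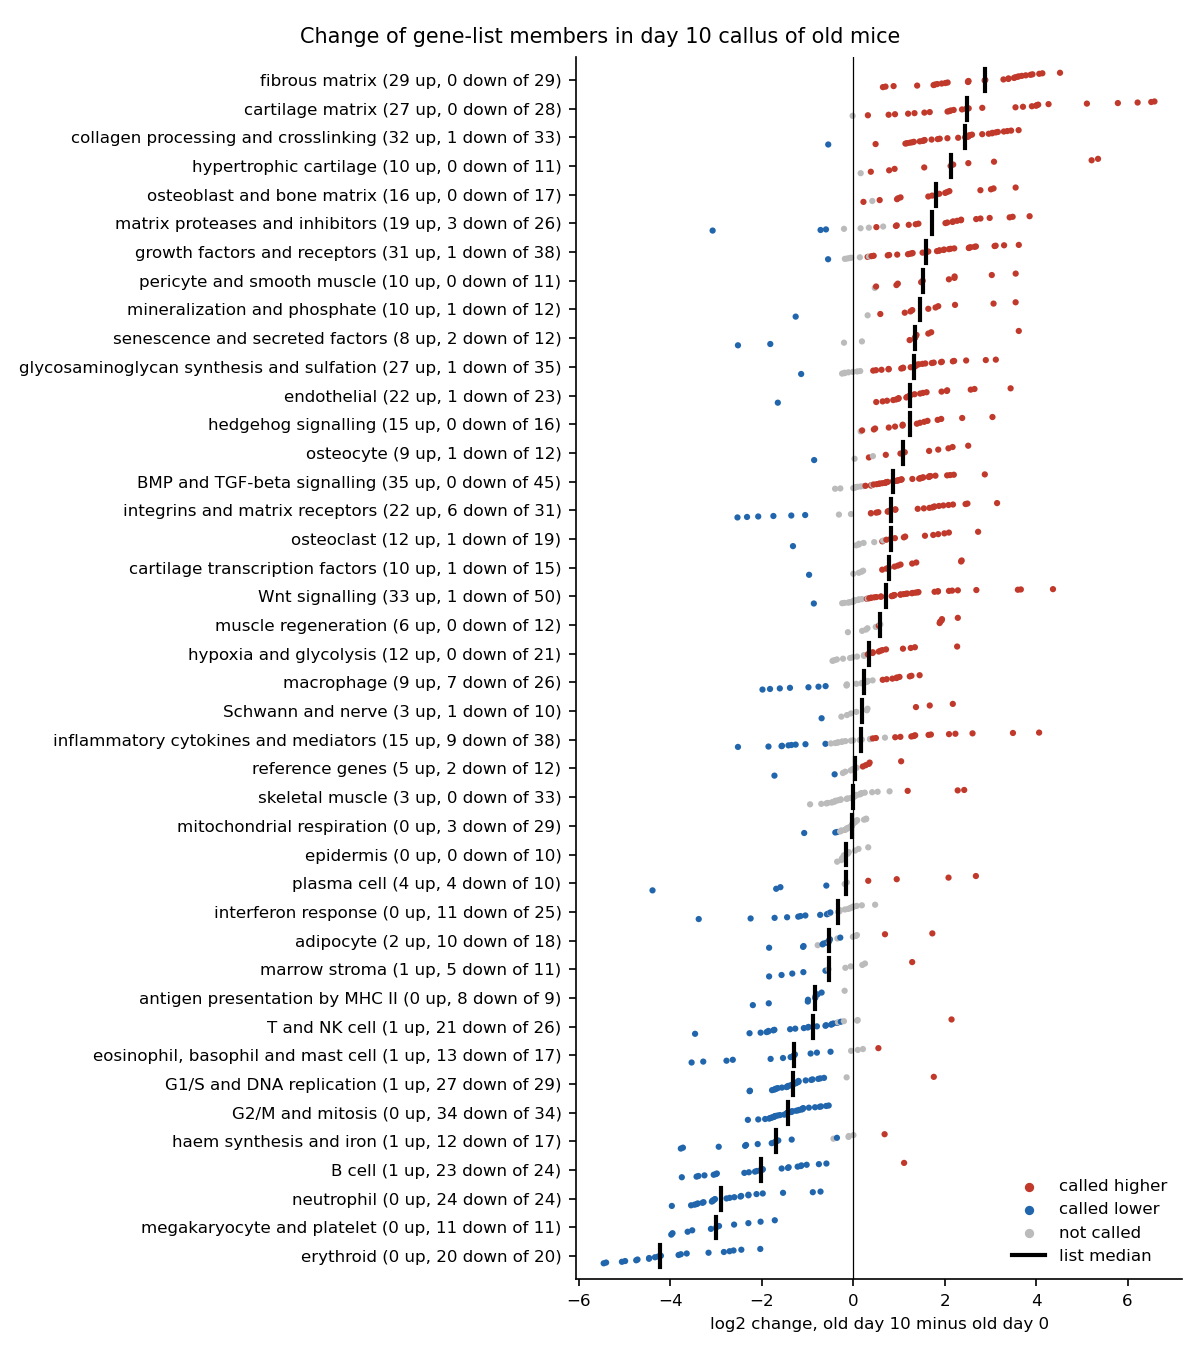
Log2 change from day 0 to day 10 in old mice (x axis) for each measured member of the gene lists (rows), ordered by list median, with called genes in red (higher) or blue (lower), the others in grey and the median as a bar. Cartilage and fibrous matrix lie to the right with medians of 2.49 and 2.89, and erythroid genes lie to the left with a median of −4.23.

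Cartilage matrix genes held the largest rises. Of 28 measured members 27 were called higher and none lower (background 24.5% higher), with a median change of 2.49 against −0.01 over all genes. Hapln1, the link protein that ties aggrecan to hyaluronan, read 10.31, 10.04, 10.63, 10.33 and 10.65 on the 5 day 10 arrays, against a lowest, median and highest of 3.58, 3.83 and 3.91 at day 0. The groups stood far apart, with no day 0 array near any day 10 array, and the change of 6.59 ± 0.50 was the largest rise of all genes (adjusted p = 1.9e-13). Acan, the core protein of aggrecan, gave 10.65, 11.62, 11.66, 11.52 and 11.89 at day 10 and 4.76, 4.95 and 5.12 at day 0, a change of 6.52 ± 0.48 (adjusted p = 6.8e-14). Matn3, a matrilin that links collagen and proteoglycan, gave 9.61, 10.19, 10.94, 10.25 and 10.72 at day 10 and 4.33, 4.52 and 4.75 at day 0, a change of 5.79 ± 0.39 (adjusted p = 9.2e-15). In all 3 genes the groups were separate, and replicate 1 of day 10 was the lowest of its group for Acan and Matn3 but not for Hapln1.

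The promoters of these 3 genes are shown because they rose furthest among the cartilage genes that the promoter table holds. Each runs from 250 bases before to 50 bases after the start of the gene (RefSeq, build GRCm38.p6) on the gene's own strand, 5′ to 3′, at chr13:89540386-89540685 (+) for Hapln1, chr7:79052976-79053275 (+) for Acan and chr12:8947679-8947978 (+) for Matn3. Capitals mark matches on either strand to short motifs of factor families. The SOX family was searched by the letters ACAAAG and by a close variant of it, ACAATG. The RUNX family was searched by TGTGGT, the GATA family by the motif AGATAA and the KLF family by CACCC.
Hapln1: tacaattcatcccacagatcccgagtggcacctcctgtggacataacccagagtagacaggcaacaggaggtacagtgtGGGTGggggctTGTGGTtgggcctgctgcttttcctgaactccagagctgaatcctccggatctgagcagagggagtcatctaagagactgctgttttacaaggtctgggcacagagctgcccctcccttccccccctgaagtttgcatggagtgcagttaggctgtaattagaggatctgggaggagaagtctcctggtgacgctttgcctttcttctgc
Acan: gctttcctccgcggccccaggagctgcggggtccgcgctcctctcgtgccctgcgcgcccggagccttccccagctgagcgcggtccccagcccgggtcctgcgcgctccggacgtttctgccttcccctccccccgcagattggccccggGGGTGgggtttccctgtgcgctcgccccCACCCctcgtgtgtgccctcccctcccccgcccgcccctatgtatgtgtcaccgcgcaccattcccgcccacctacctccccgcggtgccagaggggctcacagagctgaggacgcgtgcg
Matn3: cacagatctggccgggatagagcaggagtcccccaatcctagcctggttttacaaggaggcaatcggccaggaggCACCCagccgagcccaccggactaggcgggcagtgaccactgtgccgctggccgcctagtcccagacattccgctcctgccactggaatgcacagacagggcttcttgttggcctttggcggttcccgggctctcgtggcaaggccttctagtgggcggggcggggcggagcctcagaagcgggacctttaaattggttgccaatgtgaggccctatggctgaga
The Hapln1 window held 1 RUNX and 1 KLF match, the Acan window 2 KLF matches and the Matn3 window 1 KLF match. Among the 22 cartilage matrix genes with a promoter in the table, 9.09% held a SOX match, 22.7% a RUNX match, 13.6% a GATA match and 81.8% a KLF match. Over all 27025 promoters of the same length the shares were 28.8%, 16.9%, 11.4% and 56.7%. A match is a description of the letters and not a site of binding.

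Further cartilage matrix genes followed the same pattern. Clec3a, a cartilage-derived lectin, read 10.18, 11.27, 11.41, 11.33 and 11.63 at day 10 against 4.63, 4.80 and 5.40 at day 0 (6.22 ± 0.50). Col2a1, the type II collagen chain, read 8.62, 10.25, 10.43, 10.42 and 10.58 against 5.96, 6.04 and 6.71 (3.91 ± 0.35, adjusted p = 9.5e-12). Replicate 1 of day 10 was the lowest of its group for both, and for Col2a1 it lay well below the other 4 arrays, yet above every day 0 array. Cnmd, which codes for chondromodulin, an inhibitor of vessel growth, changed by 5.11 ± 0.35, the cartilage thrombospondin Comp by 4.27 ± 0.34, the growth-plate matrix gene Ucma by 4.04 ± 0.30, the proteoglycan gene Snorc by 4.02 ± 0.37 and the type IX collagen chain Col9a1 by 4.0 ± 0.25. Matn1, another matrilin, read from 4.10 to 5.89 at day 10 against 3.43 to 3.80 at day 0, a change of 1.34 ± 0.18.

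The hypertrophic cartilage list had 10 of 11 measured members higher and none lower, with a median change of 2.13. Col10a1, the type X collagen that defines these cells, read 10.71, 11.45, 11.77, 11.60 and 11.66 at day 10 against 6.05, 6.24 and 6.38 at day 0, a 37.1-fold difference (5.21 ± 0.37, adjusted p = 2.3e-14). Panx3, a channel protein of hypertrophic chondrocytes and osteoblasts, read 9.32, 10.59, 10.63, 10.50 and 10.62 against 4.46, 4.98 and 5.55 (5.35 ± 0.40, adjusted p = 1e-13). Replicate 1 was the lowest day 10 array for each of these genes and lay above all day 0 arrays. Pth1r, the receptor for parathyroid hormone and its related peptide, changed by 3.08 ± 0.29, the actin-severing Scin by 2.52 ± 0.22 and the collagenase Mmp13 by 2.19 ± 0.27. Vegfa, the vessel growth factor that hypertrophic chondrocytes secrete, changed by 0.79 ± 0.15, and its groups overlapped, from 8.05 to 8.88 at day 10 and from 7.28 to 8.31 at day 0.

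Among transcription factors of cartilage 10 of 15 were higher and 1 lower, with a median change of 0.78. Sox9, the factor required for chondrocyte formation, read 8.15, 8.15, 8.65, 8.15 and 8.61 at day 10 against 5.79, 5.93 and 6.24 at day 0 (2.37 ± 0.21, adjusted p = 5e-12). The groups were separate. Trps1, a zinc-finger repressor of growth-plate cartilage, changed by 2.36 ± 0.23, the limb homeobox gene Shox2 by 1.38 ± 0.19 and Foxc1 by 1.29 ± 0.19. Sox6, a partner of Sox9 in cartilage that also acts in red-cell precursors, was the member that fell, from 7.78 to 8.25 at day 0 to between 6.80 and 7.37 at day 10 (−0.96 ± 0.23, adjusted p = 0.00048). The bone and cartilage factor Runx2 was not among the genes measured here.

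Genes for making and modifying glycosaminoglycans, the sugar chains of aggrecan, of other proteoglycans and of hyaluronan, were higher in 27 of 35 and lower in 1, with a median change of 1.33. Papss2, which makes the sulfate donor used in cartilage, read 9.21, 9.32, 9.79, 9.16 and 9.85 at day 10 against 6.39, 6.53 and 6.78 at day 0 (2.90 ± 0.18, adjusted p = 2.9e-15). The extracellular sulfatases of heparan sulfate, Sulf1 (3.12 ± 0.22) and Sulf2 (2.47 ± 0.22), the heparan sulfate polymerase Ext1 (2.21 ± 0.18) and Xylt1 (1.72 ± 0.18), which adds the first sugar of the chains, also rose. Has2, which makes hyaluronan, read 8.12, 6.37, 7.86, 6.43 and 6.57 at day 10 against 4.78 to 5.03 at day 0 (2.18 ± 0.32), so that replicates 1 and 3 were the high day 10 arrays. The sulfotransferase Chst3 was the member that fell (−1.14 ± 0.14).

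Collagen processing and fibrous matrix genes rose almost without exception. Of 33 genes for the folding, trimming and crosslinking of collagen 32 were higher and 1 lower, with a median of 2.45, and all 29 fibrous matrix genes were higher, with a median of 2.89. The groups did not overlap for any of the 29 genes (background 33.4%). Lox, which starts collagen crosslinks, read 10.54, 10.57, 10.68, 10.45 and 10.73 at day 10 against 6.15, 6.92 and 8.03 at day 0 (3.62 ± 0.25, adjusted p = 1.8e-14). The day 10 arrays were tightly grouped and the day 0 arrays spread, with replicate 1 the highest of day 0.

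Among the other crosslinking and folding genes, Loxl4 changed by 3.45 ± 0.30, the lysyl hydroxylase Plod2 by 3.37 ± 0.34 and Creb3l1, a regulator of collagen secretion in osteoblasts, by 3.29 ± 0.29. Tmem38b, a channel of the endoplasmic reticulum, was the member that fell (−0.54 ± 0.19, adjusted p = 0.017), a call lost with the numbering of the sample names as a block (−0.51, limma adjusted p = 0.052). Cthrc1, a secreted protein of repairing matrix, read 10.81, 10.33, 10.37, 10.42 and 10.39 at day 10 against 5.42, 5.81 and 7.12 at day 0, the largest change of the fibrous list (4.52 ± 0.36, adjusted p = 3.3e-13). Col12a1, a collagen on the surface of fibrils, changed by 4.14 ± 0.30, the thrombospondin Thbs2 by 4.07 ± 0.29 and the proteoglycan Vcan by 3.92 ± 0.26. Replicate 1 was the highest of the 5 day 10 arrays for Cthrc1, Col12a1, Thbs2 and Vcan, the reverse of its place for Acan and Col2a1.

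**Figure D2:**
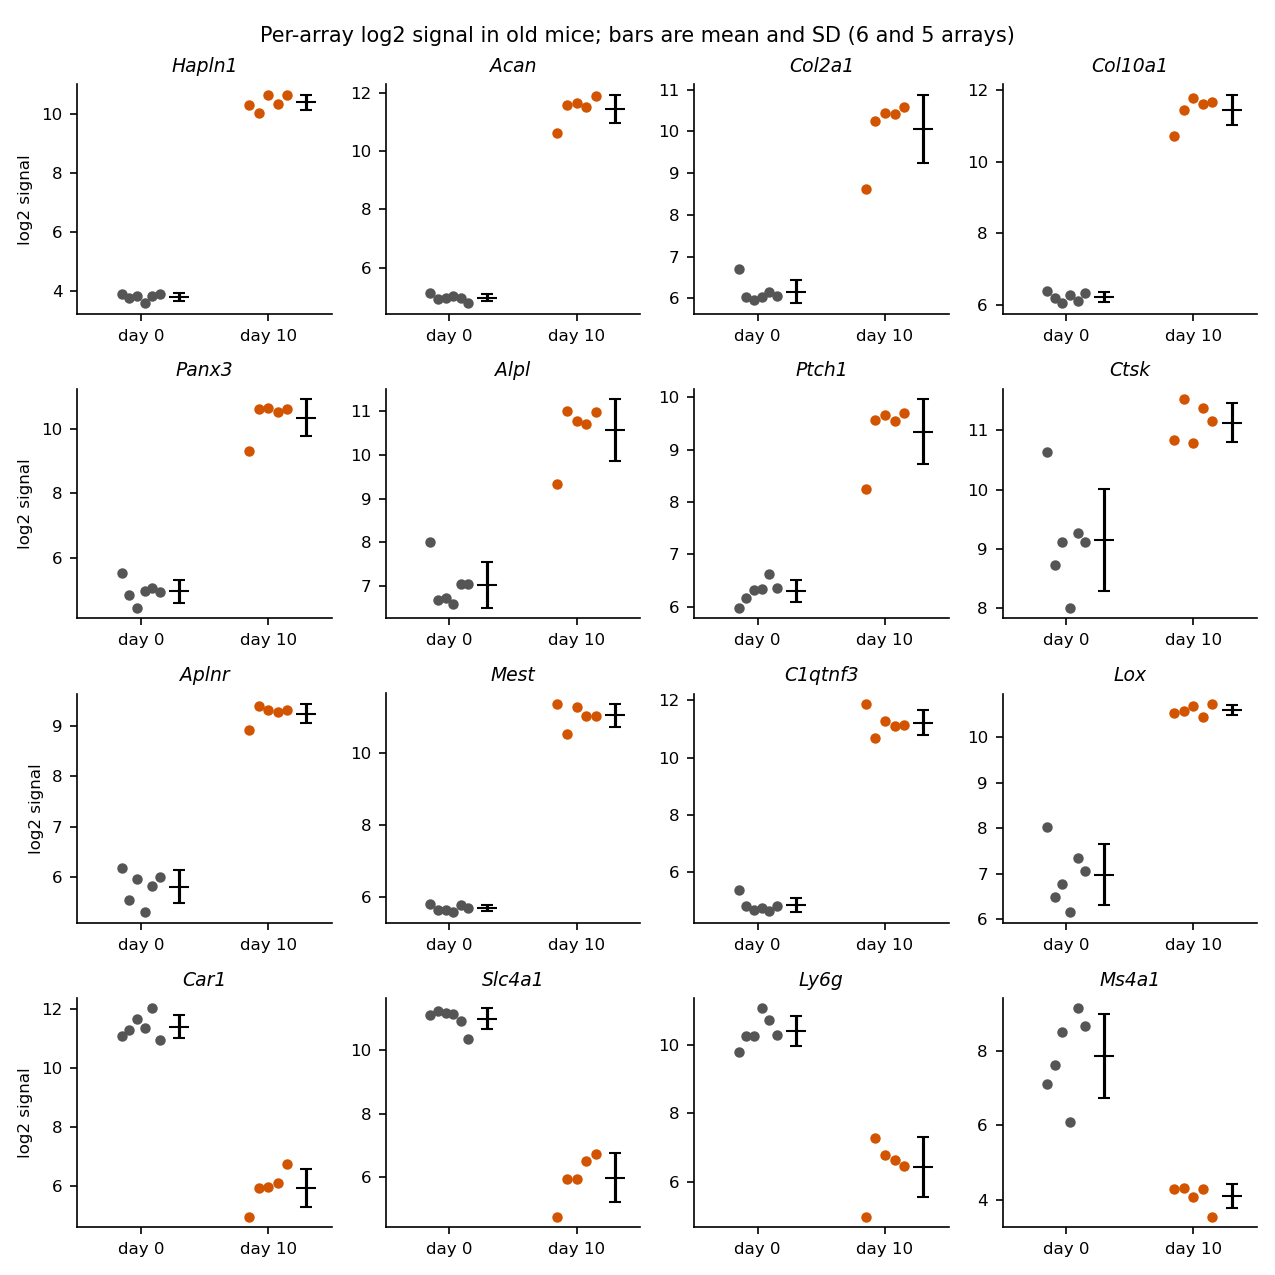
Log2 signal (y axis) of 16 genes on each old day 0 array (grey, 6) and old day 10 array (orange, 5, in order of replicate), with mean and SD beside each group. Cartilage, bone, vessel and matrix genes lie higher at day 10 and Car1, Slc4a1, Ly6g and Ms4a1 lower, and the first orange point is the lowest of its group for Col2a1 at 8.62 and for Alpl at 9.33.

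Bone-forming genes rose beside the cartilage genes. The osteoblast and bone matrix list had 16 of 17 members higher and none lower (median 1.82), and the mineralization list 10 of 12 higher and 1 lower (median 1.47). Alpl, the phosphatase that frees phosphate for mineral, read 9.33, 11.02, 10.78, 10.72 and 10.99 at day 10 against 6.59, 6.89 and 8.01 at day 0 (3.55 ± 0.36, adjusted p = 9.5e-11). Sp7, the osteoblast factor osterix, read 7.86, 9.73, 9.34, 9.50 and 9.58 against 6.07, 6.27 and 7.20 (2.78 ± 0.34, adjusted p = 7e-09). For both genes replicate 1 was far below the other 4 day 10 arrays and replicate 1 of day 0 was the highest of its group, so the gap between the groups was narrowest at these arrays. Ifitm5, a membrane protein of mineralizing osteoblasts, changed by 3.01 ± 0.35 and Smpd3, a sphingomyelinase needed for mineralization, by 3.07 ± 0.33. The bone sialoprotein gene Ibsp read from 11.55 to 12.20 at day 10 and from 9.26 to 10.96 at day 0 (2.10 ± 0.27), and Col1a1, the main bone collagen chain, from 11.53 to 12.23 and from 9.47 to 11.37 (2.06 ± 0.33). The mineralization inhibitor Mgp rose by 2.23 ± 0.15, and the phosphate transporter Slc20a1 was the member that fell (−1.26 ± 0.18).

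Of 12 osteocyte genes, which mark cells embedded in bone, 9 were higher and 1 lower, with a median of 1.08. No overlap was found for 4 of them, a share like the 33.4% of all genes, and the list means overlapped too, from 5.77 to 6.87 at day 0 and from 6.75 to 7.63 at day 10. Sost, the Wnt inhibitor of mature osteocytes, was not called (0.03 ± 0.12, adjusted p = 0.87), nor was Mepe, a phosphoprotein of osteocytes (0.43 ± 0.21, adjusted p = 0.092). Mepe passed from the compared groups alone, with array weights and without replicate 3 of day 10 (0.43 to 0.54, adjusted p from 0.0093 to 0.045). Pdpn, a marker of early osteocytes that other stromal cells also make, changed by 2.51 ± 0.23, the gap-junction gene Gja1 by 2.17 ± 0.26 and Ptprz1 by 2.08 ± 0.34. Phex, a phosphate-regulating peptidase, changed by 1.86 ± 0.36 with overlap, from 7.66 to 9.18 at day 10 and from 5.98 to 7.79 at day 0, and Dmp1, a matrix phosphoprotein, by 1.66 ± 0.43, from 7.64 to 9.73 and from 6.37 to 8.84. The phosphate hormone Fgf23 was the member that fell (−0.85 ± 0.10).

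Resorbing cells and matrix proteases also moved. Of 19 osteoclast genes 12 were higher and 1 lower, against 24.5% and 21.4% of all genes, with a median of 0.82. The groups did not overlap for 10 of them, against 33.4% of all genes. Ctsk, the collagen-degrading cathepsin of osteoclasts, read 10.83, 11.53, 10.79, 11.38 and 11.15 at day 10 against 8.0, 9.12 and 10.63 at day 0 (1.99 ± 0.30, adjusted p = 5.3e-07). The day 0 arrays were spread widely and the highest, replicate 1, came close to the lowest day 10 array. The fusion gene Ocstamp changed by 2.73 ± 0.35, the sodium-proton exchanger Slc9b2 by 2.09 ± 0.29 and the proton-pump subunit Atp6v0d2 by 1.86 ± 0.34. Itgb3, an integrin chain of osteoclasts and of platelets, was the member that fell (−1.32 ± 0.26).

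Among proteases and their inhibitors 19 of 26 were higher and 3 lower, with a median of 1.72. The inhibitor Timp1 changed by 3.86 ± 0.27, the membrane-bound collagenase Mmp14 by 3.49 ± 0.24, the gelatinase Mmp2 by 3.42 ± 0.24 and Adamts12, which cleaves Comp, by 2.98 ± 0.19. Mmp8, the collagenase of neutrophil granules, fell by 3.07 on the log2 scale (SE 0.32), from 10.09 to 11.25 at day 0 to between 6.50 and 8.34 at day 10. Of 31 integrins and matrix receptors 22 were higher and 6 lower, against 24.5% and 21.4% of all genes. The lower count was thus near the share of all genes. Itga11 (3.15 ± 0.25) and Itga10 (2.50 ± 0.21), the partners through which mesenchymal cells and chondrocytes bind collagen, the syndecan Sdc2 (2.46 ± 0.19) and the glypican Gpc1 (2.18 ± 0.23) rose furthest. The white-cell integrins Itga4 (−2.53 ± 0.23), Itgal (−2.32 ± 0.27) and Itgam (−2.08 ± 0.17) fell furthest.

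Hedgehog signalling links hypertrophic chondrocytes to their neighbours: Indian hedgehog (Ihh) is the ligand, Ptch1 its receptor, Smo the transducer that Ptch1 holds in check, and Gli1, Hhip and Ptch1 itself are induced when the pathway is active. Of 16 measured genes 15 were higher and none lower, with a median of 1.24. Ihh read 5.98, 7.16, 7.35, 7.29 and 7.45 at day 10 against 5.27, 5.46 and 5.79 at day 0 (1.55 ± 0.18, adjusted p = 2.2e-09). Ptch1 read 8.24, 9.57, 9.65, 9.55 and 9.69 against 5.97, 6.33 and 6.61 (3.04 ± 0.26, adjusted p = 3e-12). Replicate 1 was the lowest day 10 array for both ligand and receptor, still above all day 0 arrays. Gli1 changed by 1.39 ± 0.13, the decoy receptor Hhip by 1.62 ± 0.12, the co-receptor Boc by 1.85 ± 0.16, Smo by 1.92 ± 0.17 and the transcription factor Gli3 by 2.38 ± 0.19. For Gli1 and Hhip the 5 day 10 arrays stayed close together, from 6.51 to 6.95 and from 5.43 to 5.79, so replicate 1 did not stand apart in these targets as it did in Ptch1.

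In BMP and TGF-beta signalling, the pathways that start cartilage and bone formation, 35 of 45 genes were higher and none lower, with a median of 0.87. Among ligands Tgfb3 changed by 2.88 ± 0.23, Tgfb2 by 2.20 ± 0.22, Bmp5 by 1.80 ± 0.25 and Bmp2, which is needed to start fracture repair in mice, by 0.64 ± 0.16. Id3, a direct target of BMP signals, changed by 2.12 ± 0.23 and the decoy receptor Bambi by 2.05 ± 0.24. In the Wnt list 33 of 50 genes were higher and 1 lower, with a median of 0.73. The largest rises were secreted antagonists: Frzb read 7.26, 8.54, 9.16, 8.49 and 8.97 at day 10 against 3.61, 4.18 and 4.33 at day 0 (4.37 ± 0.35, adjusted p = 6.8e-13), and Sfrp1 (3.67 ± 0.35) and Sfrp2 (3.60 ± 0.31) followed. The groups were separate for Frzb. The R-spondin receptor Lgr4 changed by 2.69 ± 0.19. The nuclear effector Lef1, also expressed in B and T cells, was the member that fell (−0.86 ± 0.15).

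Of 38 growth factors and their receptors 31 were higher and 1 lower, with a median of 1.60. Igfbp3, which binds insulin-like growth factors, read 10.00, 9.95, 10.08, 10.11 and 10.25 at day 10 against 6.08, 6.55 and 6.63 at day 0 (3.62 ± 0.21, adjusted p = 3.8e-16), with little spread in either group. Igf2, a growth factor mostly of fetal tissues, changed by 3.09 ± 0.27, the heparin-binding pleiotrophin gene Ptn by 3.30 ± 0.36 and the matricellular gene Ccn3 by 3.11 ± 0.27. Fgfr3, the receptor that restrains chondrocyte division, changed by 2.13 ± 0.19, and the osteoclast-inducing ligand Tnfsf11 by 1.28 ± 0.14. The receptor Igf1r was the member that fell (−0.55 ± 0.11).

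**Figure D3:**
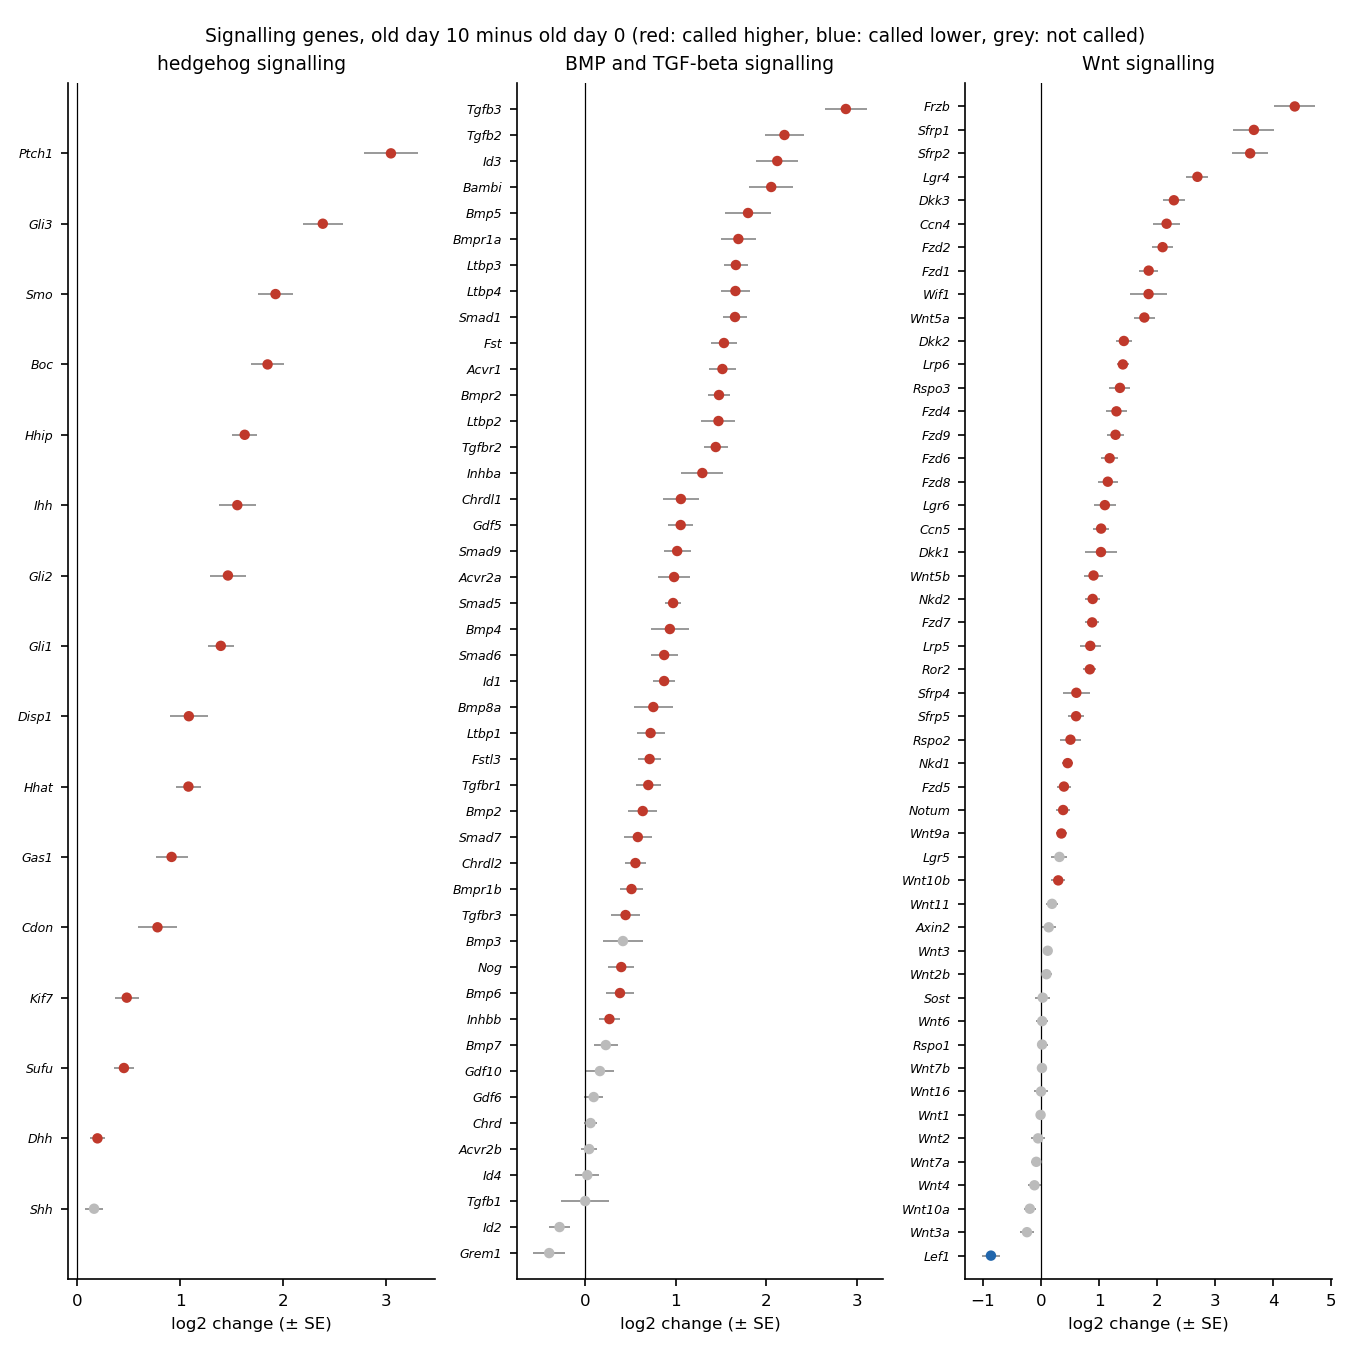
Log2 change from day 0 to day 10 in old mice ± SE (x axis) for each measured gene of the hedgehog, BMP and TGF-beta, and Wnt lists, called genes in red or blue and the others in grey. Ptch1 leads the hedgehog list at 3.04, Tgfb3 the second at 2.88 and the antagonist Frzb the Wnt list at 4.37.

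Vessel genes rose with few exceptions. Of 23 endothelial genes 22 were higher and 1 lower (median 1.24), and of 11 pericyte and smooth muscle genes 10 were higher and none lower (median 1.52). Aplnr, the apelin receptor of growing vessels, read 8.92, 9.41, 9.31, 9.27 and 9.33 at day 10 against 5.30, 5.90 and 6.19 at day 0 (3.44 ± 0.22, adjusted p = 4.9e-15). The sialomucin Emcn changed by 2.65 ± 0.17, the endothelial cadherin Cdh5 by 2.57 ± 0.16 and Ecscr by 2.06 ± 0.17. Vwf, which platelets and their precursors make as well as endothelium, was the member that fell (−1.65 ± 0.19). Among pericyte genes the smooth muscle actin Acta2 (3.55 ± 0.25) and the proteoglycan Cspg4 (3.03 ± 0.25) rose furthest, ahead of Rgs5 (2.22 ± 0.23) and Mcam (2.21 ± 0.18).

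The largest falls were those of red-cell genes. All 20 measured erythroid genes were lower (background 21.4% lower), without overlap between the groups (background 33.4%), and the median change was −4.23. The globin genes Hba-a1 and Hbb-b1 were not among those measured here. Car1, the carbonic anhydrase of red cells, read 4.96, 5.93, 5.99, 6.11 and 6.75 at day 10 against 10.96, 11.33 and 12.02 at day 0 (−5.45 ± 0.63, adjusted p = 2.3e-09). The Rhesus-associated glycoprotein Rhag read 3.90, 3.77, 3.76, 3.96 and 4.63 against 8.69, 9.57 and 9.82 (−5.40 ± 0.64, adjusted p = 4.5e-09), and the blood-group peptidase Kel 3.86, 3.71, 3.95, 4.28 and 4.54 against 8.31, 9.21 and 9.45 (−5.05 ± 0.51, adjusted p = 1.1e-10). Among called genes without overlap, leaving out predicted or clone-named genes, these were the 3 largest falls. Their groups lay far apart. The anion exchanger Slc4a1 (−4.99 ± 0.64), the membrane-skeleton gene Epb42 (−4.74 ± 0.52), Cldn13 (−4.71 ± 0.54), Car2 (−4.46 ± 0.50), the antigen gene Rhd (−4.46 ± 0.53), Trim10 (−4.33 ± 0.51) and Hemgn (−4.26 ± 0.50) were among the 12 largest falls. Ctse, a cathepsin that red-cell precursors also express, changed by −4.99 ± 0.57. The erythroid regulators Klf1 (−2.70 ± 0.35) and Gata1 (−2.62 ± 0.32) fell too.

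The promoters of Rhag, Kel and Epb42 are shown as those of the erythroid genes that fell furthest among the genes the table holds. They lie at chr17:40810899-40811198 (+), chr6:41704276-41704575 (−) and chr2:121036828-121037127 (−) in GRCm38.p6, each on the gene's own strand, and capitals mark the same motifs as above.
Rhag: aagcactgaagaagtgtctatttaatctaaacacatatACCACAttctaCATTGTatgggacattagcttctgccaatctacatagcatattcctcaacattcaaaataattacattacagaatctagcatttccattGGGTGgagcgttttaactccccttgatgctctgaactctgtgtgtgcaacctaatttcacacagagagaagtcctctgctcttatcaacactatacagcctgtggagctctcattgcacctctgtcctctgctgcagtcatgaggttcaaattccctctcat
Kel: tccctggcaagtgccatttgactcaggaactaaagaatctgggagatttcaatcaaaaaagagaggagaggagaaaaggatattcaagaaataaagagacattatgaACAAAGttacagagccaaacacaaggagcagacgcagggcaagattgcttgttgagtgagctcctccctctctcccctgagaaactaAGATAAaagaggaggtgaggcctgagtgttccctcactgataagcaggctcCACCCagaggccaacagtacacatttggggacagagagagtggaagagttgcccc
Epb42: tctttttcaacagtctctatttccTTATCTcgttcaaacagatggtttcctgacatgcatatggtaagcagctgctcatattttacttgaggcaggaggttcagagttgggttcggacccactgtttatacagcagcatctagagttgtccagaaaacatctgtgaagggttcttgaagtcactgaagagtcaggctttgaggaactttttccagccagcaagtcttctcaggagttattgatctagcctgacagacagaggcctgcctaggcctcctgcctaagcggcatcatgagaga
The Kel window held 1 SOX, 1 GATA and 1 KLF match, the Epb42 window 1 GATA match and the Rhag window 1 SOX, 1 RUNX and 1 KLF match. The GATA search covered AGATAA only, so the close variant TGATAA was neither marked nor counted. The Kel window holds TGATAA on the strand shown and the Rhag window on the other strand. Of the 14 erythroid genes with a promoter listed, 7 (50.0%) held the GATA motif, against 11.4% of all 27025 promoters and 13.6% of the 22 cartilage matrix promoters. The KLF motif was in 78.6% of the erythroid promoters, the RUNX motif in 35.7% and a SOX motif in 35.7%. The KLF share was close to the 81.8% of cartilage matrix promoters.

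Haem and iron genes moved with the red-cell genes. Of 17 measured genes 12 were lower and 1 higher, with a median of −1.68. Alas2, the first enzyme of haem synthesis in red cells, read 6.54, 6.62, 6.64, 6.79 and 6.91 at day 10 against 10.04, 10.51 and 10.65 at day 0 (−3.77 ± 0.37, adjusted p = 5.2e-11). The iron carrier of the mitochondrion Slc25a37 (−3.72 ± 0.42) and the synthesis enzyme Cpox (−2.94 ± 0.33) followed. Steap3, a ferrireductase that other tissues also express, was the member that rose (0.69 ± 0.19).

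Granulocyte and platelet genes fell as uniformly. All 24 neutrophil genes (median −2.89) and all 11 megakaryocyte and platelet genes (median −2.99) were lower (background 21.4% lower). The groups did not overlap for any gene of either list (background 33.4% without overlap). Ly6g, the surface marker of mature neutrophils, read 4.97, 7.28, 6.79, 6.62 and 6.47 at day 10 against 9.79, 10.27 and 11.05 at day 0 (−3.96 ± 0.51, adjusted p = 2.6e-08). The granule gene Olfm4 (−3.54 ± 0.31) and Ms4a3, of granulocyte precursors (−3.47 ± 0.42), fell furthest after it. Replicate 1 of day 10 was the lowest array of its group for Ly6g, Olfm4 and Ms4a3. The calgranulin S100a8, by contrast, read from 11.51 to 12.31 at day 10 and from 12.62 to 12.86 at day 0, the smallest change of the neutrophil list (−0.71 ± 0.18, adjusted p = 0.00087). The platelet genes F2rl2 (−3.98 ± 0.37), Clec1b (−3.95 ± 0.34) and Gp5 (−3.62 ± 0.38) led their list.

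Of 17 eosinophil, basophil and mast-cell genes 13 were lower and 1 higher (median −1.30). The eosinophil granule protein Prg2 (−3.53 ± 0.49), the basophil protease Mcpt8 (−3.28 ± 0.35) and Ear6 (−2.77 ± 0.44) fell furthest. The member that rose was the connective-tissue mast-cell protease Mcpt4, with 5.62, 6.35, 6.44, 5.93 and 6.09 at day 10 against 5.30, 5.50 and 5.90 at day 0 (0.55 ± 0.21, adjusted p = 0.027). Its groups overlapped, and its call was lost without replicate 2 or 4 of day 0 or replicate 2 or 3 of day 10 (changes from 0.46 to 0.51, limma adjusted p from 0.055 to 0.088). It was also lost with the numbering of the sample names as a block (0.41, limma adjusted p = 0.16).

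B-cell genes fell, and the other lymphoid lists were less uniform. Of 24 B-cell genes 23 were lower and 1 higher (median −2.01). Ms4a1, which codes for CD20, read 4.29, 4.32, 4.08, 4.30 and 3.55 at day 10 against 6.10, 8.07 and 9.13 at day 0 (−3.75 ± 0.37, adjusted p = 6.6e-11). The day 0 arrays spread over a far wider range than the day 10 arrays, and the groups were separate. The B-cell factor Spib (−3.42 ± 0.31) and the pre-B receptor gene Vpreb3 (−3.38 ± 0.31) fell as well, while Ebf1, also a factor of stromal and fat precursors, rose (1.11 ± 0.16). In the plasma-cell list 4 of 10 were higher and 4 lower, against 24.5% and 21.4% of all genes. The groups did not overlap for 6 of the 10, against 33.4% of all genes. The immunoglobulin joining chain Jchain (−4.39 ± 0.47), Irf4 (−1.68 ± 0.18) and Mzb1 (−1.59 ± 0.27) fell. The secretory-pathway genes Fkbp11 (2.68 ± 0.23) and Xbp1 (0.33 ± 0.10), the syndecan Sdc1 (2.08 ± 0.18) and Prdm1 (0.95 ± 0.19), all of them expressed outside plasma cells too, rose. The call of Xbp1 was lost with quantile normalization (0.20, adjusted p = 0.079). Of 26 T and NK genes 21 were lower and 1 higher (median −0.88), with Nkg7 (−3.46 ± 0.45), Cd2 (−2.27 ± 0.34) and Ccl5 (−2.02 ± 0.40) furthest down and Thy1, which fibroblasts also carry, up by 2.15 ± 0.30.

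Myeloid and inflammatory genes did not move as a block. In the macrophage list 9 of 26 genes were higher and 7 lower (median 0.25), against 24.5% higher and 21.4% lower over all genes. The groups did not overlap for 7, a smaller share than the 33.4% of all genes. The lectin Clec4n (1.45 ± 0.29), the lysosomal Cd68 (1.27 ± 0.25), the endotoxin receptor Cd14 (1.24 ± 0.22) and the scavenger receptor Msr1 (1.01 ± 0.19) rose. Spic, the factor of iron-recycling macrophages (−1.98 ± 0.35), the monocyte receptor Ccr2 (−1.82 ± 0.20) and Cd5l (−1.60 ± 0.23) fell. Clec4n read 8.11, 6.01, 7.11, 6.09 and 6.45 at day 10 against 4.72, 5.22 and 6.30 at day 0, so its groups overlapped and replicate 1 was the highest day 10 array.

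Among 38 cytokines and mediators 15 were higher and 9 lower (median 0.17), the latter a share close to the 21.4% of all genes. Ptgs2, the inducible prostaglandin synthase, read 9.63, 9.18, 9.87, 8.93 and 10.06 at day 10 against 4.88, 5.55 and 6.04 at day 0 (4.06 ± 0.32, adjusted p = 4.1e-13). The hyaluronan-binding Tnfaip6 (3.49 ± 0.31) and the pentraxin Ptx3 (2.61 ± 0.22) also rose with separate groups. The monocyte attractant Ccl7 read 9.87, 7.19, 8.68, 7.08 and 7.20 against 5.47, 5.76 and 6.16 (2.23 ± 0.37), and replicates 1 and 3 of day 10 were high for it as for Has2 and Il6. Il6 read 6.17, 3.97, 6.65, 3.83 and 4.13 at day 10 against 3.26, 3.71 and 3.75 at day 0 (1.34 ± 0.42, adjusted p = 0.0084), so these 2 arrays stood far above the other 3, which were near day 0. Its call was lost without replicate 1 (1.03, adjusted p = 0.051) and without replicate 3 (0.91, adjusted p = 0.07). Il1a (−2.52 ± 0.28), the chemokine Ccl6 (−1.85 ± 0.22), the haptoglobin gene Hp (−1.57 ± 0.21) and Tnf (−1.26 ± 0.19) fell.

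Interferon-response genes were lower in 11 of 25 and higher in none (median −0.33), with no overlap for 4 against 33.4% of all genes. Rsad2 (−3.38 ± 0.34), Oas3 (−2.24 ± 0.27) and Irf8 (−1.72 ± 0.18) fell furthest. Of 9 genes for antigen presentation by MHC II 8 were lower and none higher (median −0.83). H2-Ob (−2.19 ± 0.26) and H2-Oa (−1.85 ± 0.25), which B cells express, fell furthest, and the invariant chain Cd74 read 9.21, 9.46, 9.54, 8.84 and 9.47 at day 10 against 9.56, 10.32 and 11.04 at day 0 (−0.99 ± 0.30, adjusted p = 0.006). The groups for Cd74 were separate by a narrow margin.

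Marrow stroma and fat gave mixed counts. Of 11 marrow stroma genes 5 were lower and 1 higher (median −0.54), and of 18 adipocyte genes 10 were lower and 2 higher (median −0.52). Over all genes 21.4% were lower and 24.5% higher. Adipoq, the fat-cell hormone adiponectin, read 5.36, 6.08, 5.98, 5.81 and 5.85 at day 10 against 7.03, 7.64 and 8.18 at day 0 (−1.84 ± 0.33, adjusted p = 1.1e-05), and its groups were separate. The adhesion molecule Vcam1 (−1.33 ± 0.19), the niche chemokine Cxcl12 (−0.61 ± 0.15), the lipid-droplet gene Plin4 (−1.08 ± 0.29) and the triglyceride enzyme Dgat2 (−1.09 ± 0.18) fell, while the amine oxidase Aoc3, also of smooth muscle (1.73 ± 0.17), and Trarg1 (0.70 ± 0.12) rose. The number of adipocyte genes called lower ran from 8 to 12 when single arrays were left out and was 7 without both replicates 1.

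Muscle was present in both groups. Of 33 skeletal muscle genes 3 were higher, a share under the 24.5% of all genes, and none lower (median 0.00). The mean of the list ran from 8.72 to 9.82 on the day 0 arrays and from 9.32 to 9.80 on the day 10 arrays. The 3 genes were the slow-fibre troponins Tnnc1 (2.43 ± 0.36), Tnni1 (2.28 ± 0.33) and Tnnt1 (1.19 ± 0.28). Of 12 muscle regeneration genes 6 were higher, against 24.5% of all genes, and none lower. The embryonic myosin Myh3 read 8.19, 6.23, 6.90, 7.41 and 6.33 at day 10 against 4.52, 4.76 and 4.86 at day 0 (2.29 ± 0.34, adjusted p = 4e-07), and the perinatal myosin Myh8 (1.94 ± 0.31), the differentiation factor Myog (1.93 ± 0.28) and the receptor subunit Chrna1 (1.90 ± 0.28) also rose. Replicate 1 was the highest day 10 array for Myh3, Myh8, Myog and Chrna1. The part of adjoining muscle in other results was not tested.

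Nerve, skin and reference genes served as a comparison. Of 10 Schwann-cell and nerve genes 3 were higher and 1 lower, counts near or under the 24.5% and 21.4% of all genes. As single genes S100b, which chondrocytes also express (2.18 ± 0.24), Pmp22 (1.67 ± 0.16) and Ncam1 (1.37 ± 0.19) rose and the myelin gene Mbp fell (−0.69 ± 0.10). None of 10 epidermis genes was called. Of 12 commonly used reference genes 5 were higher and 2 lower (median 0.03), namely the lysosomal Gusb (1.05 ± 0.15), Rplp0 (0.28 ± 0.08), Ppia (0.36 ± 0.13), Pgk1 (0.34 ± 0.11) and Eef1a1 higher and B2m (−0.41 ± 0.07) and Tfrc (−1.72 ± 0.19) lower. The call of Ppia was lost without replicate 1 of day 10 (0.32, adjusted p = 0.056) and that of Pgk1 with quantile normalization (0.13, adjusted p = 0.4). Tfrc, the transferrin receptor, is abundant in dividing red-cell precursors.

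Genes of cell division were lower at day 10. Of 29 genes of G1/S and DNA replication 27 were lower and 1 higher (median −1.31), and all 34 genes of G2/M and mitosis were lower (median −1.43). Mki67, the proliferation antigen Ki-67, read 8.48, 8.16, 8.11, 8.06 and 8.18 at day 10 against 9.98, 10.63 and 10.72 at day 0 (−2.30 ± 0.27, adjusted p = 3.6e-09). The groups were separate by more than the spread of either. The kinesin Kif11 (−2.07 ± 0.29) and Spag5 (−1.92 ± 0.22) followed in mitosis, and the licensing factor Cdc6 (−2.26 ± 0.28), the nucleotide reductase Rrm2 (−2.26 ± 0.38) and Ccne1 (−1.77 ± 0.25) in replication. Ccnd1, a cyclin that growth signals induce, was the member that rose, with 8.53, 9.42, 9.32, 9.38 and 9.33 at day 10 against 6.94, 7.51 and 7.65 at day 0 (1.76 ± 0.22, adjusted p = 2e-08). The erythroid list moved with the cell-division lists between the groups: the erythroid list mean ran from 8.55 to 9.33 at day 0 and from 4.79 to 5.49 at day 10, and that of G2/M and mitosis from 7.77 to 8.42 and from 6.66 to 6.95. The part of red-cell precursors in the fall of division genes was not tested.

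Energy and stress lists differed in their counts. Of 21 genes of hypoxia and glycolysis 12 were higher, against 24.5% of all genes, and none lower (median 0.34). The groups did not overlap for 7 of them, a share like the 33.4% of all genes. Hif1a, the oxygen-sensing factor, read 10.79, 9.48, 10.13, 9.70 and 9.74 at day 10 against 7.43, 7.69 and 8.0 at day 0 (2.27 ± 0.22, adjusted p = 5.5e-11), and the vessel-relaxing peptide Adm (1.35 ± 0.18), the stress gene Ddit4 (1.26 ± 0.19) and Epas1 (1.09 ± 0.21) rose too. Of 29 mitochondrial respiration genes 3 were lower and none higher (median −0.03), shares under the 21.4% and 24.5% of all genes. The count of 3 went to 5 without replicate 1 of day 10 or replicate 5 of day 0. It went to 1 without replicate 3 of day 10. In the list of senescence and secreted factors 8 of 12 were higher and 2 lower (median 1.35), against 24.5% and 21.4% of all genes. The cell-cycle inhibitor Cdkn2b (1.71 ± 0.20), Igfbp4 (1.64 ± 0.16) and Glb1 (1.38 ± 0.23) were among those higher. The nuclear lamin Lmnb1 (−1.81 ± 0.19) was among those lower. The senescence marker Cdkn2a, a cell-cycle inhibitor, was not called, with a change of 0.19 ± 0.10 (adjusted p = 0.1; 0.22 and 0.021 with array weights) and values from 5.20 to 5.47 at day 10 and from 4.87 to 5.26 at day 0.

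The 12 largest rises were ranked among called genes without overlap, leaving out predicted or clone-named genes. Of these 12, 5 were not held by the lists for cartilage, bone and matrix. C1qtnf3, a secreted factor of growing cartilage, read 11.87, 10.67, 11.28, 11.09 and 11.14 at day 10 against 4.65, 4.78 and 5.36 at day 0 (6.37 ± 0.42, adjusted p = 6e-15). Mest, an imprinted gene of mesodermal tissue, read 11.35, 10.53, 11.27, 11.03 and 11.01 against 5.57, 5.67 and 5.80 (5.36 ± 0.30, adjusted p = 1.8e-16). Both genes had separate groups, with replicate 1 the highest day 10 array. Capn6, a calpain-like protein, changed by 4.96 ± 0.32, the imprinted zinc-finger gene Peg3 by 4.77 ± 0.26 and Ddah1, which breaks down inhibitors of nitric oxide synthesis, by 4.55 ± 0.31.

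The old groups at days 5 and 20 (5 arrays each) place these changes in time. Of the 1690 genes at least 2-fold higher than at day 0, 1456 (86.2%) had their highest group mean at day 10, 90 (5.33%) at day 5 and 144 (8.52%) at day 20. Of the 1247 genes that were lower, 1190 (95.4%) had their lowest mean at day 10. These counts are descriptions, because the genes were picked by their day 10 values. The median change from day 0 of cartilage matrix genes was 0.13 at day 5, 2.49 at day 10 and 0.66 at day 20. Osteocyte genes went from −0.03 through 1.08 to 1.37, and osteoclast genes from 0.28 through 0.82 to 1.29, so both lists had a higher median at day 20 than at day 10. Macrophage genes had their highest median at day 5 (1.10), as did cytokines and mediators (0.83). Erythroid genes stood at −2.63 at day 5, −4.23 at day 10 and −1.29 at day 20. All 3 steps share the day 0 arrays.

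**Figure D4:**
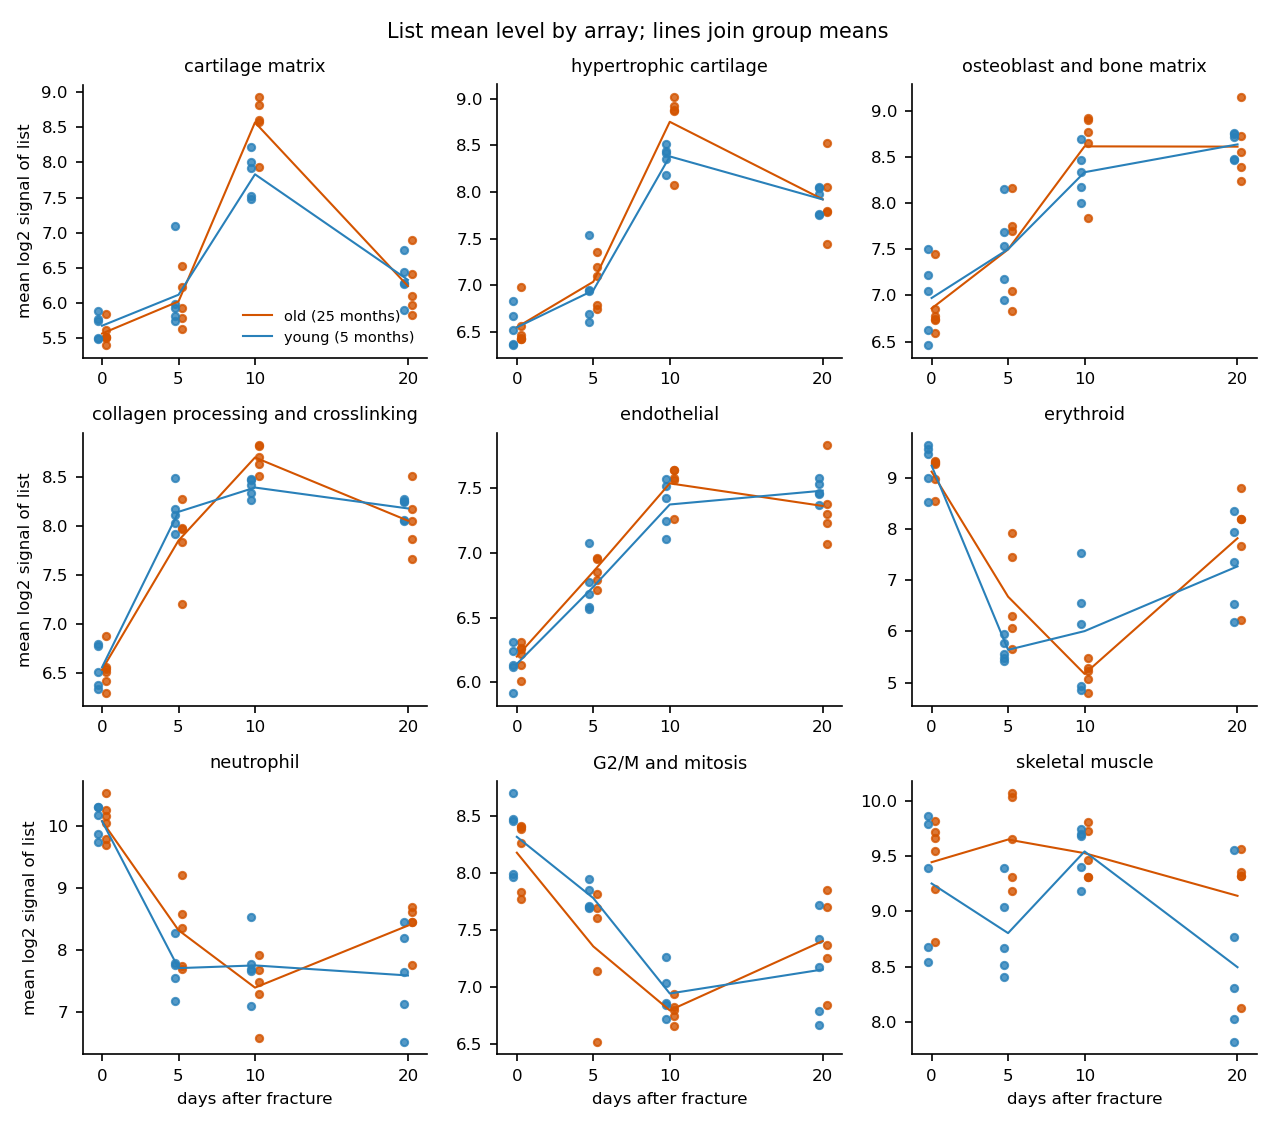
Mean log2 signal of 9 gene lists (y axes) on each array of old (orange) and young (blue) mice against days after fracture (x axis), with lines through the group means. The old cartilage matrix arrays lie between 7.93 and 8.93 at day 10 and between 5.40 and 5.84 at day 0, and the muscle arrays of both days overlap.

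Young mice went through the same step. In them 8565 genes (43.0%) were called between day 0 and day 10, 4622 higher (23.2%) and 3943 lower (19.8%). Across genes, which are not independent replicates, the old and young changes had a Pearson correlation of 0.964, and the ages share no array. Of the 2937 genes called with at least a 2-fold change in old mice, 2886 (98.3%) were also called in the same direction in young mice. For 2388 (81.3%) the change was larger in old mice, but picking the genes by their old values favours that direction. The limma test of the age difference itself called 0 genes (0.0%), with a smallest adjusted p of 0.14, and 1034 genes (5.19%) had an unadjusted p under 0.05. Leaving out a single array gave up to 3 genes called higher and 4 lower: 3 and 2 without old day 10 replicate 1, 4 lower without old day 0 replicate 4, 3 lower without young day 10 replicate 1, and 1 each way without young day 0 replicate 1. Leaving out both old replicates 1 gave 9 higher and 3 lower, and weighting the arrays by quality gave 17 higher and 14 lower.

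The genes with the smallest p for the age difference were Ccl8, C4b, Dusp18, Mgst1 and Mcpt4, all at an adjusted p of 0.14. Ccl8, a monocyte attractant, read 9.04, 8.35, 9.11, 7.81 and 7.77 in old mice at day 10 against 5.65, 6.11 and 7.74 at day 0, and its change was 2.10 ± 0.32 in old and 4.45 in young mice. The complement gene C4b changed by 0.30 in old and 1.61 in young mice, Dusp18 by 1.62 and 0.86, the glutathione transferase Mgst1 by −1.68 and −0.56 and Mcpt4 by 0.55 and 1.96. By list, the medians in old and young mice were 2.49 and 1.78 for cartilage matrix, 2.13 and 1.15 for hypertrophic cartilage, −4.23 and −3.31 for erythroid genes, 0.25 and 0.83 for macrophages and −0.83 and 0.14 for MHC II genes. The old change lay above the young one for 25 of 28 cartilage matrix genes and below it for 23 of 26 macrophage genes and for all 9 MHC II genes. Over all genes 50.9% lay above and 49.1% below. Of the genes called higher in old mice 69.6% lay above, and of those called lower in old mice 75.5% lay below. Other lists gave like tallies. Above lay 17 of 17 osteoblast and bone matrix genes and 39 of 43 collagen chains. Below lay 20 of 20 erythroid, 24 of 25 interferon response and 29 of 33 skeletal muscle genes. No gene passed the test of the age difference, and the smallest adjusted p was 0.31 in the cartilage matrix, 0.43 in the macrophage and 0.21 in the MHC II list. MHC II list means averaged 8.501 (old) and 7.815 (young) at day 0, and 7.465 and 7.516 at day 10. Macrophage list means averaged 6.739 and 6.244 at day 0, and 6.792 and 6.878 at day 10. Those of cartilage matrix averaged 5.563 and 5.675 at day 0, and 8.570 and 7.831 at day 10. The ages thus lay further apart at day 0 for MHC II and macrophage genes, and at day 10 for cartilage matrix. Age differences within a day were not tested.

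**Figure D5:**
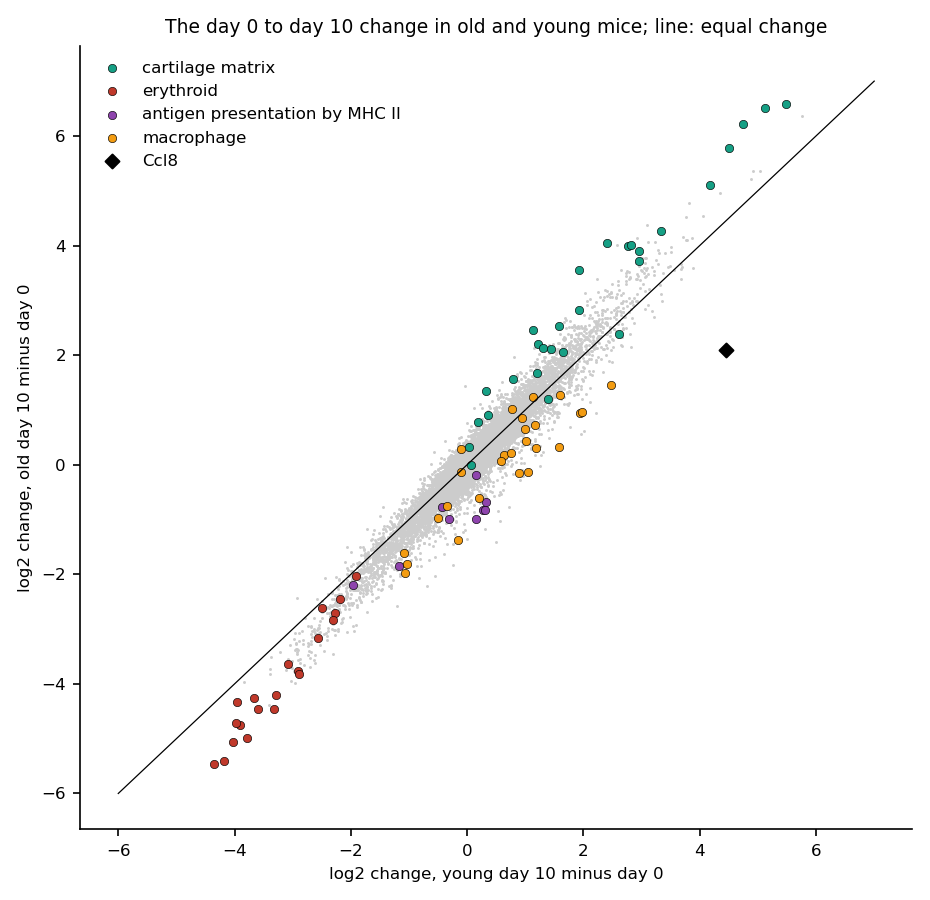
Log2 change from day 0 to day 10 in young mice (x axis) and old mice (y axis) for all genes (grey), with the line of equal change and the members of 4 lists and Ccl8 marked. Cartilage matrix genes lie mostly above the line, erythroid, macrophage and MHC II genes mostly or all below it, and Ccl8 lies farthest below at 4.45 and 2.10.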

How the data were processed

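RNA of 41 samples was hybridized to Affymetrix Mouse Gene 1.0 ST arrays after Ribo-SPIA amplification, per the labels' protocols. The deposited values are log2 signals per probe set, normalized by the authors; the method is not given in the sources used here beyond the name Partek in the submitters' processing notes. The authors' deposited table also holds linear ratios and p-values of its own contrasts: it called 9074 of these genes (4843 higher, 4231 lower), and 8994 were shared with the calls here.

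Of 28815 probe sets 21782 named 1 gene in the platform annotation, 1598 named several and 5435 none. The brightest probe set was kept for each of 19938 genes (999 had several). limma 3.58.1 in R 4.3.3 fitted the means of 8 groups (33 residual degrees of freedom), with contrasts for day 10 minus day 0 in each age and for their difference. P-values were adjusted by Benjamini-Hochberg over all genes and called under 0.05. The labels call the samples biological replicates of different mice.

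Simulated data held 19938 genes, of which 200 were changed, with noise drawn separately for each gene. For the old contrast 74% of changes of 0.5 and 92% of changes of 1.0 were recovered, and for the age difference 30% and 80%. False calls made up 3.19% and 8.33% of the calls. In the real old contrast 45.9% of genes were called, so these shares need not carry over to it.

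The members and lists were chosen with earlier results of these data known. The text names the 12 largest rises and falls, the 5 smallest p of the age difference, and up to 4 higher and 3 lower members of each list. The largest rises and falls were ranked among called genes whose groups did not overlap, leaving out predicted or clone-named genes. Col2a1, Comp, Ucma, Snorc, Col9a1, Matn1, Mmp13, Vegfa, Has2, Xylt1, Ibsp, Col1a1, Dmp1, Ihh, Gli1, Hhip, Bmp2, Bmp5, Fgfr3, Tnfsf11, Klf1, Gata1, S100a8, Il6, Tnf, Cxcl12, Cdkn2a, Eef1a1, Sost, Mepe, Plagl1 and Cdkn1c were added for their roles after their values were seen. Alternatives covered normalization, dim genes, probe-set averaging, the test, array weights, blocks and left-out arrays. Promoters came from RefSeq (GRCm38.p6); protein sequences were not used here.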

Additional observations from a re-analysis of the deposited data

Results flagged for a closer look

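In each group of 5 or 6 old arrays, the highest or lowest array was set apart where Dixon's 95% critical value for its gap to the next was passed. This was examined for 540 groups of named genes and list means, chance alone sets about 1 in 20 apart, and 71 were set apart. Replicate 1 of day 10 and replicate 1 of day 0 made up most of them.

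The log2 signal of day 10 replicate 1 lay below the rest of its group for Alpl (9.33), Aplnr (8.92), Ccnd1 (8.53), Cdh5 (9.15), Clec3a (10.18), Col2a1 (8.62), Epas1 (8.40), Gpc1 (8.36), Ifitm5 (8.34), Ihh (5.98), Irf8 (5.77), Itga10 (7.53), Mgp (12.11), Panx3 (9.32), Ptch1 (8.24), Pth1r (8.22), S100a8 (11.51), Smo (7.43), Smpd3 (7.93), Snorc (7.88), Sp7 (7.86) and Trarg1 (5.84). On day 10 replicate 1, the log2 signal lay above the rest of its group for Ccn3 (9.14), Cthrc1 (10.81), Mki67 (8.48), Ppia (12.16), Ptn (10.67) and Rgs5 (10.93). Day 0 replicate 1 had a log2 signal that lay above the rest of its group for Adm (4.88), Alpl (8.01), C1qtnf3 (5.36), Col12a1 (8.34), Col1a1 (11.37), Col2a1 (6.71), Cthrc1 (7.12), Gli3 (5.59), Itga11 (6.42), Mmp13 (10.52), Mmp14 (8.38), Pth1r (6.96), Ptn (7.41) and Timp1 (8.39). The log2 signal of day 0 replicate 6 lay below the rest of its group for Alas2 (10.04), Car2 (10.66), Cpox (8.73), Kel (8.31), Lmnb1 (8.45), Slc25a37 (9.76) and Slc4a1 (10.34). On day 0 replicate 5, the log2 signal lay below the rest of its group for Frzb (3.61). Day 0 replicate 5 had a log2 signal that lay above the rest of its group for Jchain (10.83) and Vcam1 (10.02). The log2 signal of day 0 replicate 4 lay below the rest of its group for Ccnd1 (6.94) and Sulf1 (5.27). On day 10 replicate 5, the log2 signal lay above the rest of its group for Cpox (6.74) and Rhag (4.63). Day 10 replicate 4 had a log2 signal that lay below the rest of its group for Spag5 (5.51).

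The list mean of day 10 replicate 1 lay below the rest of its group for hypertrophic cartilage (8.08), osteoblast and bone matrix (7.83), mineralization and phosphate (8.49), matrix proteases and inhibitors (7.85), hedgehog signalling (6.35), endothelial (7.26) and haem synthesis and iron (7.09). On day 0 replicate 1, the list mean lay above the rest of its group for hypertrophic cartilage (6.97), osteoblast and bone matrix (7.45), Schwann and nerve (6.09) and all collagen chains (6.40). Day 0 replicate 5 had a list mean that lay above the rest of its group for plasma cell (6.79) and macrophage (7.35). The list mean of day 10 replicate 2 lay above the rest of its group for reference genes (10.22).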

How the results depend on the processing

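Of 226 named genes, 166 kept direction and call in old mice under all 25 alternatives. Most lost calls fell in names numbered under 60 alone, where day 0 had 1 array. In names numbered 60 or more alone 17 named genes lost their call. Outside these 2 subsets 8 named genes lost it under some alternative. Only Sost and Mepe, neither called, changed sign: Sost went from 0.03 to −0.090 with quantile normalization, −0.028 with median centring, −0.34 in names numbered under 60 alone and −0.050 to 0.10 with single arrays left out, and Mepe to −0.10 in names numbered under 60 alone. The old totals were 9205 genes with quantile normalization, 9774 with median centring, 9174 with averaged probe sets, 9173 with a plain ANOVA contrast, 9144 with trend and robust moderation, 9329 from the compared groups alone and 10641 with array weights. Median centring lowered the share of calls that were higher from 53.4% to 45.0% in old and from 54.0% to 41.1% in young mice. With only the 9969 brighter genes, 2643 (old) and 2391 (young) were lower. At least 2-fold changes numbered 1690 higher and 1247 lower in old and 1545 and 1015 in young mice. Leaving out 1 array gave 4660 to 4895 higher and 3921 to 4218 lower in old, 4272 to 4571 and 3471 to 3870 in young mice, and 0 to 3 and 0 to 4 for the age difference. Both replicates 1 were left out together after the data were seen: 8489 genes were called in old mice, and 9 higher and 3 lower for the age difference. Array weights gave 17 and 14 for the age difference. The causes were not tested.

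With the replicate number as a block 8942 genes were called in old mice (4751 higher, 4191 lower), and the block changed no named call. Same-numbered day 0 and day 10 samples of old mice correlated in their deviations between −0.256 and 0.054, so the numbers were not taken to pair them. Sample names fall into numbers from 60, numbers under 60 and lettered names, and both old groups hold the first 2 kinds. Lettered names occur for 3 old day 0 arrays and for no old day 10 array, so the kind of name is partly tied to day. With this numbering as a block 8504 genes were called, and Mcpt4 and Tmem38b lost their calls. Names numbered 60 or more alone (3 arrays against 2) gave 3228 higher and 2725 lower, and those under 60 alone (2 against 1) gave 2661 and 1396, with the lone array assumed to vary like the other groups; fewer arrays entered these. Counts of 0 to 3 members against a list's direction moved by up to 2 when single arrays were left out. A bulk extract of mixed or uncertain dissection and groups of 5 and 6 arrays limit all values, and signals near background understate changes.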

Other observations

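Imprinted genes, a list put together after the values were seen, included some of the largest rises in old mice. Of 38 measured genes 17 were higher and 2 lower (background 24.5% higher and 21.4% lower), with a median change of 0.24. Beside Mest and Peg3, Grb10, an adaptor that restrains insulin-like growth factor signals, read 10.28, 10.08, 10.39, 10.10 and 10.28 at day 10 against 5.81, 6.05 and 6.61 at day 0 (4.10 ± 0.20, limma adjusted p = 1e-17). The zinc-finger gene Zim1 read 8.37, 7.73, 8.36, 8.05 and 8.16 against 3.90, 3.93 and 4.34 (4.10 ± 0.23). The groups lay far apart for both. Plagl1 changed by 3.58 ± 0.23 and the cell-cycle inhibitor Cdkn1c by 1.55 ± 0.15. Group means over days 0, 5, 10 and 20 were 5.68, 9.03, 11.04 and 8.49 for Mest, 5.47, 7.65, 10.24 and 8.0 for Peg3, and 6.31, 7.92, 9.41 and 6.97 for Igf2, so each was highest at day 10. The 2 members that fell, Nnat (−0.45 ± 0.18) and Rasgrf1 (−0.24 ± 0.08), both lost their calls without replicate 1 of day 10 (−0.40 and −0.20). Nnat also lost its call without day 0 replicate 1, 3 or 6 or day 10 replicate 2, 4 or 5 (−0.45 to −0.41).

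All collagen chains, also listed after the values were seen, were higher in 32 of 43, against 24.5% of all genes, and lower in none. The median change was 1.56, and the groups did not overlap for 25, against 33.4% of all genes. Chains of cartilage and fibrils led, with Col10a1 at 5.21, Col12a1 at 4.14, Col9a1 at 4.0 and Col2a1 at 3.91.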
